A study of Mus musculus with 43 samples.

Results

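The regions described here are 3680 peaks of dimethylated arginine 2 of histone H3, with both methyl groups on one nitrogen (H3R2me2a), from testes of WT mice at postnatal day 14 (P14). They were selected on measured peaks. Each is a peak of the first P14 H3R2me2a list that shared at least 1 bp with a peak of the second list and with a peak of either P14 list of acetylated lysine 27 of histone H3 (H3K27ac). In addition, its summit had to lie more than 3000 bp from every transcript start of the GENCODE vM21 annotation. Of the 47975 peaks of the first list, 21374 overlapped the second list, 9000 of those were distal, and 3680 of the distal peaks (7.67% of the first list) also carried H3K27ac. The 33 peak lists of the series hold 935217 peaks in all.

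The peaks came from CUT&Tag, in which an antibody against a histone mark tethers a transposase that cuts and tags the DNA nearby. The labels describe P7 and P14 testes of C57BL/6J WT mice, from which tubule cells were dissociated and passed through a strainer to remove Sertoli cells. By the methods of the study, interstitial cells had first been removed from the tubules with collagenase IV. The 7 marks compared were H3R2me2a, H4R3me2a, H3R8me2a, H4R3me1, H4R3me2s, H3K27ac and H3K4me3, each with 2 or 3 lists per age. Prmt1-dKO mice carry the tamoxifen-inducible, germ-cell-directed Ddx4-CreERT2 and Prmt1 lox/lox alleles, and received tamoxifen for 3 days. At P7 they were profiled for H4R3me2s (2 lists against 2 WT lists), by bulk RNA-seq of whole testis (3 Prmt1-dKO and 3 WT libraries) and by Smart-seq2 of sorted spermatogonia (2 and 2 libraries). By the methods of the study the Smart-seq2 controls were Prmt1 +/lox animals with the Cre, although the labels call them WT. The labels do not say whether lists or libraries of a group came from separate animals, so p-values measure the spread between these samples, which may be technical.

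Enhancers are stretches of DNA away from gene starts that raise the transcription of a gene on the same chromosome. Active enhancers carry H3K27ac, whereas H3K4me3 marks active promoters. Methylated arginines are written by the PRMT enzymes. Prmt6 is the main known writer of H3R2me2a, a mark that keeps readers of the H3 tail and the H3K4 methyltransferase complexes away in other cells, Prmt1 writes H4R3me2a, and Prmt5 writes the symmetric form H4R3me2s. Between P7 and P14 the mouse testis passes from spermatogonia at P7 to spermatocytes in meiotic prophase at P14.

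The P14 samples are called spermatogonia in their titles and spermatocytes in their cell type field. A peak in both lists within 1000 bp of a start was present for H3K4me3 at 36 of 38 meiosis genes at P14 and 25 of 38 at P7, and for H3K27ac at 34 of 38 and 13 of 38. Over all 21951 protein-coding genes these shares were 61.5% (H3K4me3) and 45.8% (H3K27ac) at P14 and 59.6% and 28.1% at P7. Spermatogonial genes had H3K4me3 at 23 of 30 at both ages, and H3K27ac at 16 of 30 at P14 and 8 of 30 at P7. Pachytene and spermatid genes had H3K4me3 at 13 of 22 at P14 and 10 of 22 at P7. Their H3K27ac counts were 11 of 22 and 5 of 22. Genes of cells that the strainer should have reduced also carried promoter peaks at P14: 14 of 20 Sertoli genes had H3K4me3 and 7 of 20 had H3K27ac. The H3K4me3 counts were 4 of 12 for Leydig cells, 3 of 9 for peritubular myoid cells, 3 of 8 for endothelial cells and 1 of 10 for macrophages. The lists held between 15361 and 55908 peaks, and P14 lists were longer than P7 lists for most marks. The peak lists give no read depth. Inside the 3 P14 H4R3me2s lists the peak names carry a tag for another day than their labels give.

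The sequences that carry the first finding are given as the 300 bases around the summit, GRCm38 (mm10) plus strand, of 3 of the 6 regions with the highest H3R2me2a signal in the weaker of the 2 lists, named by their nearest protein-coding gene. They are followed by 4 regions nearest to a gene of a germ cell list, picked after their values were seen. Capitals mark matches on either strand to the SOX (ACAATGG), DMRT (ACATTGT), CTCF (AGNNGGCNC) or AP-1 (TGANTCA) motif, and a sequence with no capitals held none of the 16 motifs searched.
Chl1 region, chr6:103649025-103649324: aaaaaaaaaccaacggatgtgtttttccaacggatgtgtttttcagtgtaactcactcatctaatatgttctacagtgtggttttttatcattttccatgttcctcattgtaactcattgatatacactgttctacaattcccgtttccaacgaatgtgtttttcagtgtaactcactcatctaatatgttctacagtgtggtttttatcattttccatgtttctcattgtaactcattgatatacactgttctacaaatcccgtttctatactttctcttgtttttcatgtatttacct
Gm8797 region, chr3:5860406-5860705: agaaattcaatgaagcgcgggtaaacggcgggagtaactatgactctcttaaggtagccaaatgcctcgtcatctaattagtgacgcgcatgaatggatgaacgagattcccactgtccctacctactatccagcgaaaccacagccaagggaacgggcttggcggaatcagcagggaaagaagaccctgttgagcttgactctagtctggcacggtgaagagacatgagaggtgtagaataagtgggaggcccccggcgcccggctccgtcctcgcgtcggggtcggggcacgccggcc
Cldn34d region, chrX:76598717-76599016: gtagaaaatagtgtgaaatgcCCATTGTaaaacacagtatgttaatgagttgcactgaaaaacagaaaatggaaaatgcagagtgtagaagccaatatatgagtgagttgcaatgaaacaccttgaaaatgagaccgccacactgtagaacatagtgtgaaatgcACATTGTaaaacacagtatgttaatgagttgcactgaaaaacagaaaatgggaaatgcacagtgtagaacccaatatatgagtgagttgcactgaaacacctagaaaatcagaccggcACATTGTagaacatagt
Rec114 region, chr9:58767219-58767518: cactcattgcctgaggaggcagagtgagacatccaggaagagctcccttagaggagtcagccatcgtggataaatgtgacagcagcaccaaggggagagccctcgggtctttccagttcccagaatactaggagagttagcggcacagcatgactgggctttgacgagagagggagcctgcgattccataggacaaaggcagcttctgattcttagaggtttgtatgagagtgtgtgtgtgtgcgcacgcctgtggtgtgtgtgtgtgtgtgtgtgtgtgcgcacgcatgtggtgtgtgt
Foxo1 region, chr3:52328574-52328873: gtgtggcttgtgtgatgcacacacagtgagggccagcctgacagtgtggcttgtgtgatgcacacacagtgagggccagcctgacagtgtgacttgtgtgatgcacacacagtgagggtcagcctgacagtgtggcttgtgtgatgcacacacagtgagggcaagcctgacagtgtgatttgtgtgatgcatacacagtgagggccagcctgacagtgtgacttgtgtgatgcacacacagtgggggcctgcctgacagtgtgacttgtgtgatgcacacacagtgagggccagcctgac
Tbpl1 region, chr10:22744823-22745122: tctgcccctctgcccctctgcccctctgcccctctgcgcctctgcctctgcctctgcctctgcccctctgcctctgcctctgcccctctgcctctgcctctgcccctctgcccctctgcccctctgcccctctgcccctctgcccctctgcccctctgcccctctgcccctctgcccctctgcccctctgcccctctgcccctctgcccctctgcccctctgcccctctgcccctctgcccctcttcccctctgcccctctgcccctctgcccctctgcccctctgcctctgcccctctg
Tdrd5 region, chr1:156242479-156242778: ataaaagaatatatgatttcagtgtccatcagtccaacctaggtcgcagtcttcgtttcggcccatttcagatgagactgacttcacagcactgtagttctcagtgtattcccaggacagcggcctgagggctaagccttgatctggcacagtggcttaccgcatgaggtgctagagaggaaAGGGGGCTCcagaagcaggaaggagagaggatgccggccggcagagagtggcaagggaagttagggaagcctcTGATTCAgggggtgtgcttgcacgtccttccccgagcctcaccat

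The strongest regions shown differed in repeat content within their 300 bases. The sequence near Gm8797 reads as the conserved core of 28S ribosomal RNA, with no repeated 12-base word and 5.67% of its bases soft-masked. The sequence in an intron near Chl1 is built from the minor satellite, the DNA unit of mouse centromeres, and 56.7% of its 12-base words occurred more than once within the 300 bases. In the Cldn34d sequence 38.8% of them did, and 17% of its bases were soft-masked. In the Foxo1 sequence 77.2% of 12-base words were repeated, although none of its bases (0%) was soft-masked, which is how the reference marks known repeats. The Tbpl1 sequence was a pyrimidine-rich repeat (92.0%), whereas the Tdrd5 sequence had no repeated 12-base word and the Rec114 sequence had 11.1%.

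Repeated sequence was more common in these regions than in either distal comparison set. The 3 comparison sets were 5320 distal reproducible H3R2me2a peaks without H3K27ac, 2530 distal H3K27ac peaks present in both lists without H3R2me2a, and 8804 H3R2me2a peaks with H3K27ac within 3000 bp of a transcript start. At least 50% of the 12-base words were repeated within the 300 bases in 845 of 3609 regions on placed chromosomes (23.4%), against 11.2% of distal H3R2me2a peaks without H3K27ac and 1.11% of distal H3K27ac peaks without H3R2me2a. Regions of this kind are called tandem repeat regions. Their shares count placed chromosomes only, and a value without them leaves out the regions on unplaced contigs too. At least 50% of the bases were soft-masked in 27.8% of regions, 20.7% and 10.8% of the same sets. The other 71 regions lay on unplaced contigs that carry no annotated transcript.

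The same regions recurred across antibodies. Of the 3680 regions, 213 (5.79%) had a peak in all 33 lists, every mark, age and genotype included, as did 97 promoter peaks (1.10%). Both distal comparison sets lack a P14 mark by their definition and so cannot reach 33 lists. The median region was in 12 lists, the median distal H3R2me2a peak without H3K27ac in 5 and the median distal H3K27ac peak without H3R2me2a in 3. The rule itself asks for 3 lists in these regions, so these medians are a description. Fold enrichment, the height of a peak over its local background as the peak caller gave it, was 2.92 (median) in the 494 regions found in 3 to 5 lists and 7.08 in the 213 regions found in all 33. Tandem repeat regions made up 2.43% of regions in 3 to 5 lists, 25.2% of those in 11 to 20 lists, 60% of those in 30 to 32 lists and 52.0% of those in all 33. The main comparisons are therefore given with and without tandem repeat regions. The part of repeats in the recurrence was not tested.

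**Figure D1:**
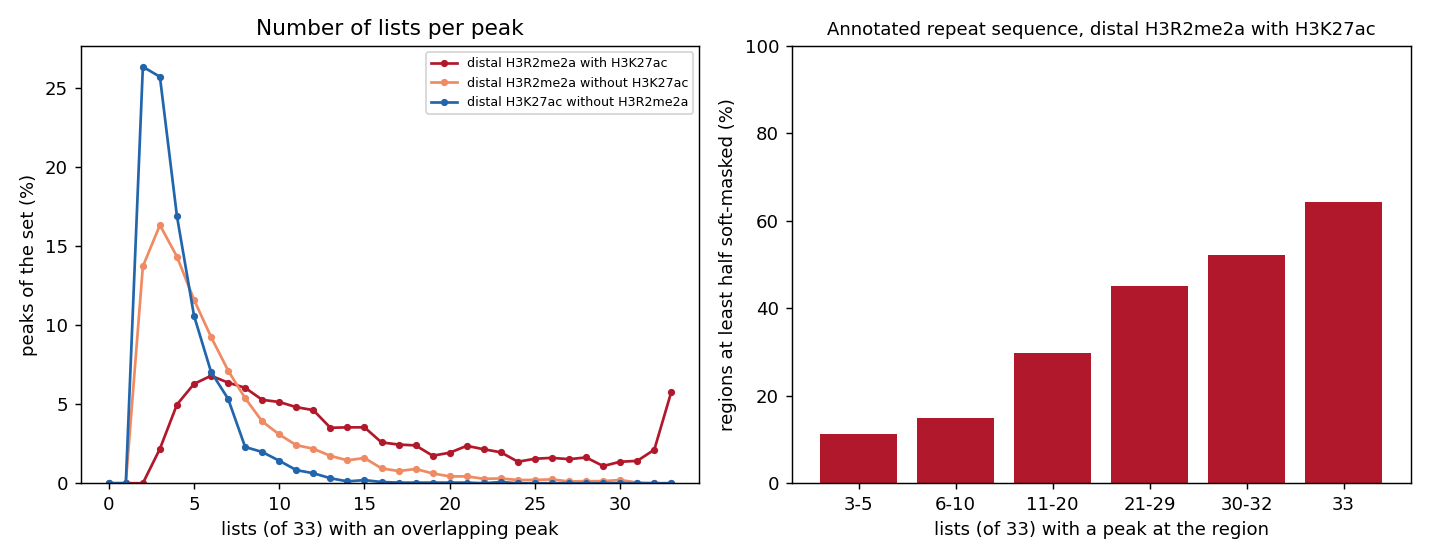
Left, the percentage of peaks in each of 3 distal sets (vertical axis) by the number of the 33 lists that hold an overlapping peak (horizontal axis). Right, the percentage of regions with at least 50% of their 300 bases soft-masked, by the number of lists, which rises from 11.4% in 3 to 5 lists to 64.4% in all 33.

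The H3R2me2a signal that chose the regions is given as a description. Fold enrichment in the first list ran from 1.64 to 21.6 with a median of 3.18 (quartiles 2.82 and 3.73), and the overlapping peaks of the second list had a median of 3.17. An H3K27ac peak was in the first list at 2838 regions (median 3.47), in the second at 2142 (median 3.31) and in both at 1300. The regions were 431 bp wide at the median, against 323 bp for distal H3R2me2a peaks without H3K27ac and 329 bp for distal H3K27ac peaks without H3R2me2a. The strongest 2 regions on placed chromosomes had 19 and 19.5 near Chl1 and 19.6 and 18.7 near Gm8797, both in all 33 lists. Among the regions near germ cell genes the values were lower. The Rec114 region had 4.90 and 4.14, the strongest Foxo1 region 4.12 and 3.43, and the Tdrd5 region 3.36 and 2.75. At the distance limit, the closest regions inside were at 3001 bp (nearest protein-coding gene Foxl1, fold enrichment 2.54) and 3010 bp (Ifnar1, 2.75). The closest peaks left out, at 2999 and 2998 bp, had 3.24 and 3.26.

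The regions lay both between and within genes. By the summit, 1781 (48.4%) were intergenic, 1665 (45.2%) in an intron, 176 (4.78%) in a non-UTR exon and 58 (1.58%) in a UTR. Distal H3K27ac peaks without H3R2me2a were more often intronic (57.2%). The median distance to a transcript start was 12655 bp, with 469 regions at 3000 to 5000 bp and 273 beyond 50000 bp. The median of distal H3R2me2a peaks without H3K27ac was 12796 bp. The X chromosome held 43 regions (1.17%) and the Y chromosome 24. The median GC content of the 300 bases was 52.7% with 3 CpG, against 64.7% and 23 CpG in promoter peaks with both marks.

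The other arginine marks were found at 31.6% to 60.7% of the regions at P14. H4R3me2a, the mark written by Prmt1, covered 58.0%, 60.7% and 59.5% of regions in its 3 lists, the highest shares of the 4 marks. With every list held to its 15000 best peaks, the H4R3me2a lists (39.95% to 42.3%) overlapped those of H3R8me2a (37.04% to 40.9%). H3R8me2a covered 50.1% and 53.1%, H4R3me1 51% and 50.7%, and H4R3me2s 40.8%, 31.6% and 35.1%. Every one of these 10 lists covered a larger share of the regions than of distal H3R2me2a peaks without H3K27ac, where the range was 10.3% to 32.7%, and than of distal H3K27ac peaks without H3R2me2a, where it was 3.44% to 11.8%. The mean difference was 26.1 percentage points to the first set (21.3 to 29.1 over the lists) and 41.1 points to the second, each higher in 10 of 10 lists (two-sided exact sign-flip permutation test over 10 lists, p = 0.00195, the smallest possible, Benjamini-Hochberg adjusted over 6 comparisons p = 0.00234). The first difference rose to 40.7 points when H3K27ac was required in both lists. The second was 23.8 or 22.9 points when one of the H3R2me2a lists was left out of the rule, and 23.5 points with a q of at most 0.01 in the compared lists. The regions were chosen for having both marks at P14, while the first set lacks H3K27ac and the second lacks H3R2me2a. Arginine marks are often found together, so these P14 differences are not independent of the choice, and its part was not tested.

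**Figure D2:**
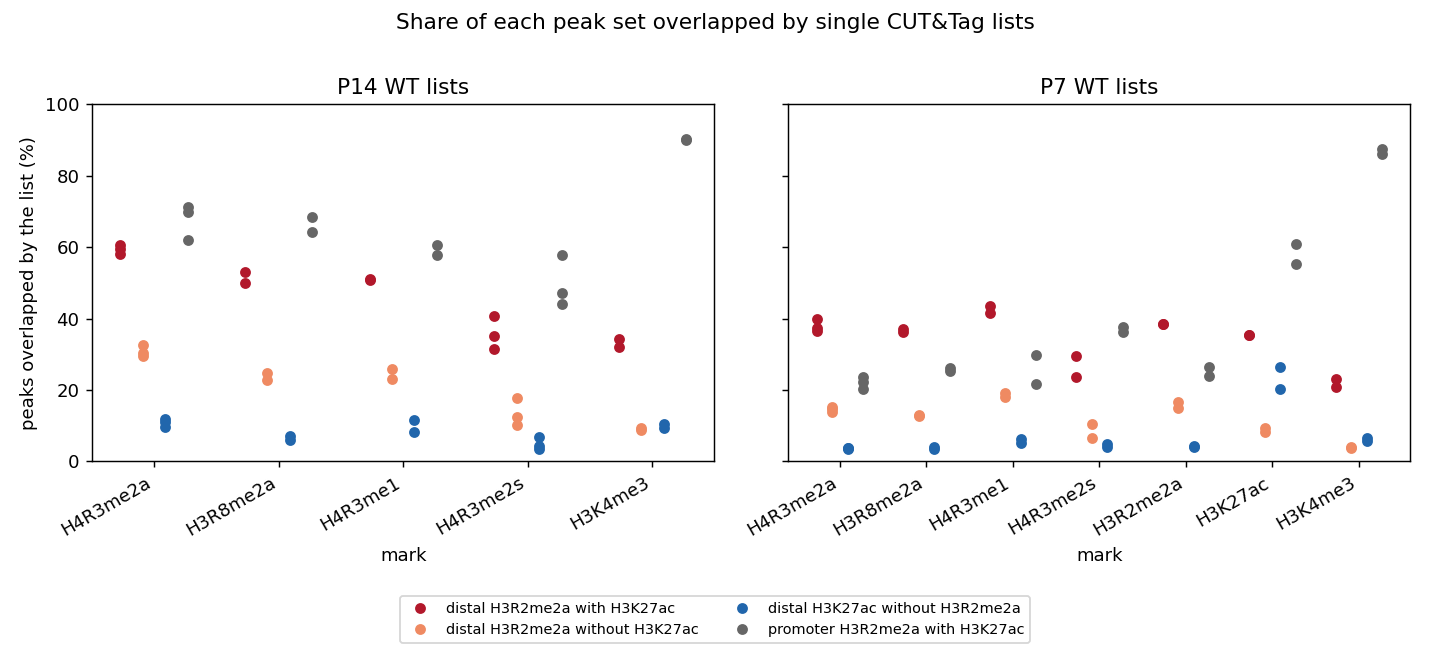
Percentage of each peak set (vertical axis) that overlaps a peak of a single WT list, by mark (horizontal axis), at P14 (left) and P7 (right), with one point per list. For the 4 other arginine marks and H3K4me3, the marks drawn at P14, the distal H3R2me2a peaks with H3K27ac lie between the promoter peaks and both other distal sets, and at P7 most arginine lists place them highest.

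Promoter peaks with both marks were covered more often than the regions at P14. The regions were lower in 10 of 10 lists, by 11.3 percentage points on average (exact p = 0.00195, adjusted p = 0.00234). Without tandem repeat regions it was -19.4 points, against -12.1 points for all peaks on placed chromosomes, and it was -17.6 or -17.9 points when one of the H3R2me2a lists was left out of the rule. It was -4.43 points with H3K27ac required in both lists and -6.00 points with a q of at most 0.01 in the compared lists. When an overlap had to span 50% of the peak, that difference was -1.79 points (exact p = 0.236). The differences to both distal sets were smaller but of the same sign without tandem repeat regions, at 21 and 32.9 points, against 25.7 and 40.2 points for all peaks on placed chromosomes. They were 22.9 and 38.0 points without peaks found in all 33 lists, which removes no peak of the distal sets, and 18.2 and 32.4 points among peaks with a fold enrichment of 2.5 to 3.5 only. The tests treat lists as independent, although lists of one mark share an antibody.

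The marks were often found at one region together. At least 1 list of each of the 4 other marks covered 1438 regions (39.1%), 3 of 4 marks covered 767, 2 covered 708, 1 covered 501 and none covered 266 (7.23%). Among regions with 3 of the 4 marks, H4R3me2s was the missing one in 342 and H4R3me2a in 30, and the H4R3me2s lists held 18423 to 33814 peaks against 39597 to 44836 in the H4R3me2a lists. Regions with all 4 marks had a median fold enrichment of 3.65 for H3R2me2a and a width of 552 bp, against 2.92 and 315 bp in regions with none. Tandem repeat regions made up 43.8% of the former and 2.26% of the latter. All 10 lists had a peak at 540 regions, including the Rec114 region, while the Tdrd5 region was in none of the 10.

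A minority of regions carried H3K4me3, the promoter mark. It covered 34.3% and 31.9% of the regions in the 2 P14 lists, against 8.91% to 9.46% of distal H3R2me2a peaks without H3K27ac and 90.2% to 90.4% of promoter peaks. Either list marked 1520 regions (41.3%), or 995 of 2764 (36%) without tandem repeat regions, against 40.5% of the 3609 on placed chromosomes. With H3K4me3, 74.4% to 76.8% of regions were covered by H4R3me2a and 50.5% to 58.8% by H4R3me2s. Without it, the ranges were 46.5% to 49.3% and 18.3% to 28.1%. The regions with H3K4me3 were CpG-rich (GC of at least 50% and an observed to expected CpG ratio of at least 0.6) in 15.1% of cases, the others in 1.30%.

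At P7, before meiotic prophase, 52.1% of the regions already had H3R2me2a in at least 1 list. The 2 P7 lists covered 38.5% and 38.4% of regions and either covered 1916. P7 H3K27ac covered 35.3% and 35.5%, with 1712 regions in either list. Both marks were present at P7 in 1218 regions (33.1%), H3R2me2a alone in 698, H3K27ac alone in 494 and neither in 1270 (34.5%). No P7 WT list of any mark held a peak at 501 regions (13.6%), against 38.5% of distal H3R2me2a peaks without H3K27ac. Without tandem repeat regions the share with P7 H3R2me2a was 43.3% and that with P7 H3K27ac 36.9%, against 51.2% and 45.6% of the 3609 regions on placed chromosomes. Tandem repeat regions were 46.0% of those with both marks at P7 and 7.80% of those with neither. The strongest Foxo1 region and the Rec114 region had both marks in both P7 lists, and the Tdrd5 region had no P7 peak of either mark.

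The other arginine marks were at fewer regions at P7. H4R3me1 covered 43.6% and 41.7%, in lists of 22031 and 24193 peaks. H4R3me2a covered 37.4%, 36.6% and 39.8%, H3R8me2a 36.4% and 37.0%, and H4R3me2s 23.7% and 29.6%. The H4R3me2a and H3R8me2a lists held 15361 to 18722 peaks, and with 15000 peaks per list the means were 37.2% for H4R3me1, 36.4% for H4R3me2a and 36.4% for H3R8me2a, with overlapping ranges. Together with P7 H3R2me2a these 11 lists covered the regions more often than distal H3R2me2a peaks without H3K27ac, by 22.5 percentage points (11 of 11 lists), and than distal H3K27ac peaks without H3R2me2a, by 32.3 points (11 of 11 lists, exact sign-flip permutation p = 0.000977 for each, the smallest possible, adjusted p = 0.00234). The first was 13.6 points with a q of at most 0.01 and 37 points with H3K27ac required in both lists. The second was 15.9 points with a q of at most 0.01, and 19.06 or 17.7 points when one of the H3R2me2a lists was left out of the rule. Without tandem repeat regions these were 16.2 and 23.2 points, against 22 and 31.3 points for all peaks on placed chromosomes.

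Against promoters the order differed from that at P14. The regions were covered more often than promoter peaks with both marks in 9 of 11 P7 lists, by 9.90 points on average (SD over lists 10.5, exact p = 0.0166, adjusted p = 0.0166), and less often in both H4R3me2s lists. That difference was 19.9 points (exact p = 0.000977) when an overlap had to span 50% of the peak and 21.2 points (exact p = 0.00293) with H3K27ac required in both lists. It did not pass the test without tandem repeat regions (1.23 points, exact p = 0.689, against 8.88 points with exact p = 0.0244 for all peaks on placed chromosomes), without peaks in all 33 lists (6.83 points, exact p = 0.0645), or when either H3R2me2a list was left out of the rule (2.19 and 1.13 points).

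Coverage by the 4 other marks was higher in P14 than in P7 lists, by less at equal list length. The regions were chosen by P14 peaks of other antibodies at which these marks are often found together, so the values are a description and carry no test. The mean difference over marks was 13.4 percentage points (10 P14 and 9 P7 lists). By mark the differences were 21.4 points for H4R3me2a, 14.9 for H3R8me2a, 9.15 for H4R3me2s and 8.21 for H4R3me1, and the lists of the 2 ages did not overlap for any of them. With the 15000 best peaks of every list the mean difference was 4.20 points. By mark it was then 1.78 points for H4R3me1, 2.55 for H3R8me2a, 4.58 for H4R3me2a and 7.87 for H4R3me2s. The P14 H4R3me2s lists are those whose peak names carry a tag for another day.

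**Figure D3:**
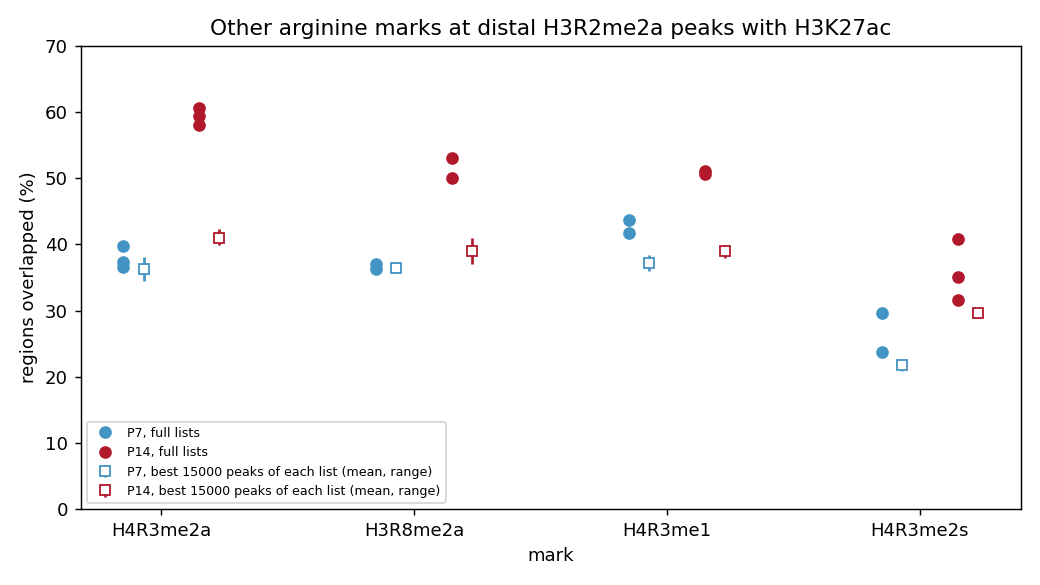
Percentage of the 3680 regions (vertical axis) overlapped by WT lists of 4 arginine marks (horizontal axis) at P7 and P14. Filled circles are single lists, and open squares with bars give the mean and range when each list is held to its 15000 best peaks, where the ages lie closer together.

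H4R3me2s at the regions did not differ between genotypes by more than the spread of the lists. The Prmt1-dKO lists covered 27.4% and 23.9% of regions and the WT lists 23.7% and 29.6%, so the groups overlapped. The difference was -1.06 percentage points (exact permutation test over 2 and 2 lists, p = 1, where the smallest possible p is 0.33).

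The regions were nearest to 2690 protein-coding genes, 12.3% of the 21951 annotated, when each of the 3609 regions on placed chromosomes was given the gene with the closest start. The median distance was 19609 bp, 3217 regions were within 100000 bp, and 1483 lay inside the body of their nearest gene. Most genes (2098) had 1 region and 165 had 3 or more. The genes with the most regions were runs of neighbouring peaks. Pdia4, a protein disulfide isomerase of the endoplasmic reticulum, had 18 regions within 41244 bp at 35209 to 75173 bp from its start. Gm21119 had 14, Scaf8 13, Gpm6a 11, Gm15319 10 and Vmn1r2, a vomeronasal receptor gene, 9. Of these 75 regions, 19 were in all 33 lists, and regions near one gene are not independent of each other.

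Spermatogonial genes gave the largest number of nearest genes among the testis gene lists, of which only the meiosis list is longer. By share the endothelial list was higher (3 of 8 genes, 37.5%, against 30%). Of the 30 spermatogonial genes, 9 were nearest to a region (the share over all protein-coding genes was 12.3%), and 8 without tandem repeat regions. They were Gfra1, the receptor for GDNF on stem spermatogonia, Id4, Zbtb16, Etv5, Sall4, Foxo1, Uchl1, Dazl and Itga6. The same list had 11 genes nearest to distal H3R2me2a peaks without H3K27ac (16.2% of all protein-coding genes were) and 6 nearest to distal H3K27ac peaks without H3R2me2a (8.64% of all), so such genes were also nearest to peaks of the other sets. Foxo1, a transcription factor of spermatogonial stem cells, had 3 regions, 2 of them in an intron 59538 and 60388 bp from its start. Etv5, which GDNF signalling induces, had 3, present in 8 to 10 lists each and 37840 to 77966 bp from its start. Uchl1, a deubiquitinase of spermatogonia, had 2.

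Of the 38 meiosis genes, 2 were nearest to a region, 6 to a distal H3R2me2a peak without H3K27ac and 1 to a distal H3K27ac peak without H3R2me2a. Over all protein-coding genes, the share nearest to a region was 12.3%. The Rec114 region lay 23405 bp from the start of Rec114, whose protein is needed for meiotic DNA breaks. The Syce1 region (chr7:140792349-140793247) lay 4723 bp from Syce1, a part of the synaptonemal complex, and had H3R2me2a in both P7 lists but no H3K27ac at P7. The later germ cell list had 1 of 22 (Tbpl1, a TBP-related factor of spermatids, whose 2 regions were both tandem repeats). The piRNA list had 2 of 18. The Tdrd5 region was 20899 bp from its gene, and the Tdrd7 region lay in an intron 3352 bp from the start in 23 lists.

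Genes of somatic testis cells were also among the nearest. The share over all protein-coding genes was 12.3%. Sertoli cell genes had 4 of 20, namely Gata4, a transcription factor of the somatic gonad, with 3 regions, and Wt1, Sox9 and Gdnf with 1 each. The Sox9 region lay 372645 bp from the start of Sox9. In the Sertoli list 4 genes were nearest to distal H3R2me2a peaks without H3K27ac and 6 to distal H3K27ac peaks without H3R2me2a. Endothelial genes had 3 of 8 (Flt1, Kdr and Pecam1), and the Flt1 region, 3799 bp into the gene, was in all 33 lists with a fold enrichment of 13.7 and 11.6. The Kdr region lay 147198 bp from the start of Kdr. In the endothelial list 3 genes were nearest to the first of these distal sets and 0 to the second. Leydig cell genes had 1 of 12 (Pdgfra), myoid genes 1 of 9 (Myh11) and macrophage genes 0 of 10. In these lists 3, 0 and 2 genes were nearest to the first distal set and 1, 0 and 0 to the second. In the Prmt family Prmt7 and Prmt2 had 1 region each, and Prmt1 had none. The part of somatic cells in these peaks was not tested.

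At P7, genes nearest to the regions had a higher median level than all protein-coding genes. Their median in the 3 WT bulk libraries was 14.2, 14.4 and 13.3 TPM (transcript abundance per unit of length, scaled to a fixed total per library), against 6.12, 6.13 and 5.63 TPM for all protein-coding genes. Genes nearest to distal H3R2me2a peaks without H3K27ac had 10.6, 10.9 and 10.1 TPM and those nearest to distal H3K27ac peaks without H3R2me2a 20.7, 21.5 and 19 TPM. The regions fell between both distal sets in every library. In bulk samples fewer cells of a type and less RNA per cell cannot be told apart.

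In the Prmt1-dKO the nearest genes were called at shares near or under those of all genes in bulk RNA. Prmt1 itself was 652, 604 and 638 TPM in WT and 410, 433 and 402 TPM in Prmt1-dKO bulk libraries, which do not overlap (log2 fold change -0.49, SE 0.13, edgeR adjusted p = 0.0334). In Smart-seq2 Prmt1 was 350 and 239 TPM in WT and 179 and 151 TPM in Prmt1-dKO, without overlap (log2 fold change -0.88, SE 0.26, edgeR adjusted p = 0.133). Of 2143 nearest genes tested, 64 (2.99%) were called higher and 40 (1.87%) lower at an edgeR adjusted p under 0.05 and at least 2-fold. Over all 16554 genes tested the shares were 5.32% and 1.78%, and over the protein-coding ones 3.65% and 1.79%. Without tandem repeat regions 49 and 37 of 1749 were called. In Smart-seq2 none was called in either direction, as among all genes (0% higher and 0% lower by edgeR). There 253 nearest genes (12.9% of 1956) were higher and 81 (4.14%) lower at an unadjusted p under 0.05 and at least 2-fold, against 13.8% and 4.12% of all genes. DESeq2 called 147 higher and 66 lower (7% and 3.14% of the 2101 nearest genes), against 5.07% and 2.82% of all genes. All genes here include noncoding ones, whereas every nearest gene is protein-coding. Of the 1008 higher and 560 lower DESeq2 calls over all genes, 859 and 474 were of protein-coding genes. Shares over protein-coding genes alone were not computed for DESeq2. By edgeR without WT replicate 1 the calls were 653 higher and 209 lower (32% and 10.2% of nearest genes), against 29.5% and 12% of all genes. Without WT replicate 2 they were 540 and 183 (26.4% and 8.95%), against 22.5% and 11.2%.

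The largest calls among nearest genes included the forkhead factors Foxl2 and Foxc1, which rose, and Lars2, Lipg and Tnc, which fell. Foxl2, a transcription factor of the ovary, was 0.31, 0.36 and 0.31 TPM in WT and 4.55, 6.81 and 3.49 TPM in Prmt1-dKO (log2 fold change 4.09, SE 0.37, edgeR adjusted p = 0.000685), and its region lay 12930 bp from its start and was in 14 lists. Foxc1, a mesenchymal factor, was 0.58, 0.78 and 0.57 TPM in WT and 2.16, 3.30 and 2.0 TPM in Prmt1-dKO (log2 fold change 2.14, SE 0.30, edgeR adjusted p = 0.00269). Dcdc2a, a gene of the doublecortin family, was 0.28, 0.40 and 0.71 TPM in WT and 2.78, 6.62 and 2.78 TPM in Prmt1-dKO (log2 fold change 2.86, SE 0.67, edgeR adjusted p = 0.0188), and its region was in all 33 lists.

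Lars2, the leucyl-tRNA synthetase of mitochondria, fell from 316, 312 and 331 TPM to 86.6, 75.3 and 76.3 TPM (log2 fold change -1.87, SE 0.11). Its region lay in a UTR, 7217 bp from the start of Lars2, and was in all 33 lists at a fold enrichment of 11.1 and 10.3. In Smart-seq2 Lars2 was 102 and 87.9 TPM in WT and 160 and 188 TPM in Prmt1-dKO, the opposite order, with an edgeR adjusted p of 0.0774. Lipg, which encodes endothelial lipase, was 5.60, 4.88 and 4.51 TPM in WT and 1.06, 0.81 and 1.55 TPM in Prmt1-dKO bulk libraries (log2 fold change -1.98, SE 0.23, edgeR adjusted p = 0.00151). Tnc, an extracellular matrix protein, was 1.76, 2.15 and 2.41 TPM in WT and 0.68, 0.66 and 0.25 TPM in Prmt1-dKO (log2 fold change -1.86, SE 0.36, edgeR adjusted p = 0.00877). In the bulk libraries the summed level of the 19 Sertoli genes with an RNA value (Wt1 had none) ran from 9052 to 9623 TPM in WT and from 6191 to 6880 TPM in Prmt1-dKO, and that of the 12 Leydig genes from 1083 to 1163 and from 478 to 578 TPM. All Prmt1-dKO libraries were under all WT libraries for 14 of the 18 Sertoli genes tested, 7 of 12 Leydig, 8 of 9 myoid, 1 of 8 endothelial, 2 of 10 macrophage and 5 of 29 spermatogonial genes, against 28.4% of the 14230 protein-coding genes tested. They were over all WT libraries for 2, 0, 0, 3, 2 and 3 genes of the same lists, against 10.5%. None of the genes of these lists with an RNA value was at 0 in every bulk library. Foxl2 and Tnc were listed at 0 TPM in all 4 Smart-seq2 libraries. Foxc1 was there 0.99 and 0.18 TPM in WT and 0.08 and 0.03 TPM in Prmt1-dKO (edgeR adjusted p = 0.288), and Lipg was listed at 0 in both WT libraries and was 0.27 and 0.93 TPM in Prmt1-dKO (edgeR adjusted p = 0.0804), both in the opposite order to bulk RNA. Dcdc2a, listed at 0 in both WT libraries and 1.28 and 2.63 TPM in Prmt1-dKO, kept the order (edgeR adjusted p = 0.0844). The part of the somatic cells in these calls was not tested.

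**Figure D4:**
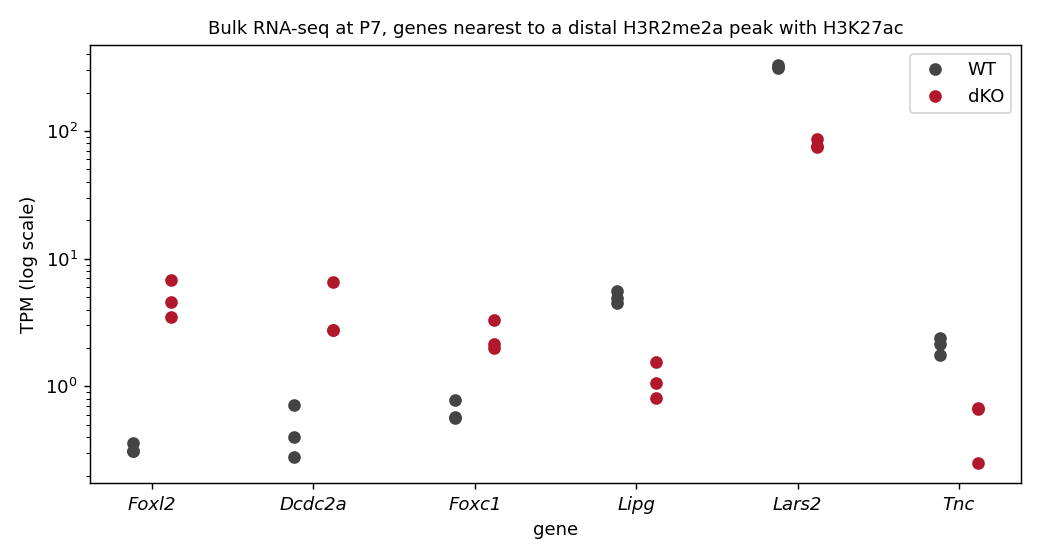
TPM (vertical log axis) in single bulk libraries at P7 of the 6 nearest genes with the largest calls (horizontal axis), WT and Prmt1-dKO. The genes are the 3 largest calls in each direction among those without overlap between genotypes, so the separation seen is part of how they were chosen, and the highest level is that of Lars2.

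Germ cell genes near a region did not pass the test in bulk RNA where they were named by the rule. Foxo1 was 22.6, 25.6 and 20.7 TPM in WT and 24.4, 15.2 and 21.7 TPM in Prmt1-dKO, so the genotypes overlapped (edgeR adjusted p = 0.922). Rec114 was 17.6, 19.9 and 19.3 TPM in WT and 19.9, 24.3 and 18.2 TPM in Prmt1-dKO, also with overlap (edgeR adjusted p = 0.314). Uchl1, Etv5, Tdrd5, Tdrd7 and Tbpl1 had edgeR adjusted p-values of 0.175 to 0.72, and Syce1 had 0.0869. In Smart-seq2 the order differed for some of them, and none passed the test. Foxo1 was there 13.4 and 16 TPM in WT and 18.1 and 20.2 TPM in Prmt1-dKO (edgeR adjusted p = 0.12). Syce1 was 24.8, 28.3 and 23.9 TPM in WT and 31.9, 34.4 and 26.4 TPM in Prmt1-dKO in bulk RNA, but 240.1 and 197 TPM in WT and 125 and 116 TPM in Prmt1-dKO in Smart-seq2 (edgeR adjusted p = 0.0862). Among other named genes without overlap between genotypes, 4 were lower and 1 was higher at an edgeR adjusted p under 0.05. They are examples, and no share is drawn from them. Whatever the adjusted p, all Prmt1-dKO libraries were under all WT libraries for 28.4% of the 14230 protein-coding genes tested. They were over all WT libraries for 10.5%. Myh11, the smooth muscle myosin of myoid cells, was 68.8, 69.2 and 67.7 TPM in WT and 25.3, 34 and 16.9 TPM in Prmt1-dKO (log2 fold change -1.25, SE 0.25, edgeR adjusted p = 0.0109). Pecam1, an adhesion protein of endothelial cells, was 12.1, 11.4 and 8.94 TPM in WT and 21.4, 16.6 and 18 TPM in Prmt1-dKO (log2 fold change 0.95, SE 0.12, edgeR adjusted p = 0.00199). Kdr, a VEGF receptor of the same cells, was 16.5, 15.1 and 14.3 TPM in WT and 12.3, 8.24 and 9.79 TPM in Prmt1-dKO (log2 fold change -0.45, SE 0.12, edgeR adjusted p = 0.0297). Sox9, a Sertoli cell transcription factor, was 88, 92.5 and 87.6 TPM in WT and 65.3, 40.1 and 54.1 TPM in Prmt1-dKO (log2 fold change -0.61, SE 0.12, edgeR adjusted p = 0.0104), and in Smart-seq2 it was 8.97 and 9.54 TPM in WT and 11.7 and 18.8 TPM in Prmt1-dKO, the opposite order (edgeR adjusted p = 0.188). Pdia4, the gene with 18 regions, was 139, 143 and 132 TPM in WT and 103, 83.3 and 84 TPM in Prmt1-dKO (log2 fold change -0.44, SE 0.10, edgeR adjusted p = 0.0155). Of these 5 genes, Myh11 alone passed the 2-fold limit used for the counts.

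Of the 16 motifs searched, 14 were no more frequent in the regions than in the more frequent of both distal sets. The SP/KLF motif GGGCGGG was in 4.05% of the 3609 windows on both strands, against 3.42% and 3.01% of the distal sets without H3K27ac and without H3R2me2a and 28.8% of promoter peaks, and the ETS motif CCGGAAG in 2.36%, 1.86%, 2.25% and 10.2%. The CTCF core (AGNNGGCNC) was in 17.4% of regions, against 19.8% of distal H3R2me2a peaks without H3K27ac, 14.6% of distal H3K27ac peaks without H3R2me2a and 29.7% of promoter peaks. The MYB motif CAGTTG was in 9.89%, 12%, 16.1% and 8.30% of the same sets, and the GATA motif AGATAAG in 2.08%, 2.28%, 5.14% and 1.22%. The CREB/CREM motif TGACGTNA was in 0.388% of regions and 1.84% of promoter peaks. The DMRT motif ACATTGT, found at 2 places in the Cldn34d sequence, was in 3.52% of regions, 2.71% and 6.29% of the distal sets, the SOX motif ACAATGG in 2.61%, 3.13% and 4.07%, and the AP-1 motif TGANTCA in 6.32%, 6.55% and 8.86%. A match is a description of letters and not of binding.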

How the data were processed

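CUT&Tag peak lists (33) of P7 and P14 testes and RNA tables (10) of P7 testes were analysed as deposited. Per the labels and the methods of the study, the authors trimmed reads with fastp 0.23.2, aligned them to mm10 and called narrow peaks with MACS2 2.1.0, list by list. Names inside the deposited lists carry a p threshold of 0.005 (q of 0.05 for H3K4me3). The deposited fold enrichment is a ratio of signal to local background, and the deposited significance is −log10 of p or q. The authors estimated RNA with RSEM, whose deposited expected counts were rounded here, and whose deposited TPM were used as levels only. All peak ends fitted GRCm38, whose RefSeq sequence was used. Read depth of the lists is unknown, and RNA totals were 12396317 to 18547078 counts.

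Overlap meant 1 shared bp. Shares of regions per list were compared by two-sided exact permutation over lists, never over regions. RNA was tested over all genes with edgeR 4.0.16 (quasi-likelihood, TMM, filterByExpr; called at a Benjamini-Hochberg adjusted p under 0.05 and at least 2-fold), with DESeq2 1.42.0 as an alternative. On simulated bulk counts (16554 genes) 52 of 100 genes changed 2-fold and 100 of 100 changed 4-fold were called, and on simulated Smart-seq2 counts (16443 genes) 0 and 25. Python 3.11.15 and pysam 0.24.0 did the rest.

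Named regions and genes followed a rule: the 6 genes nearest to most regions, the 6 strongest regions, the 6 in most P14 arginine lists, up to 3 genes per gene list, the 3 largest called changes in each direction among genes averaging 50 or more counts whose genotypes were separate in every library, the 4 peaks nearest the 3000 bp limit, and Prmt1. Members, lists and tests were chosen with earlier results of these data known. Of the 21951 protein-coding genes, 21208 matched the RNA tables by identifier. Alternatives tried included other overlaps, distances, thresholds, list lengths and tools, each list or library left out, and a replicate block. Sequences of 3 of the 6 strongest regions are not reported here.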

Additional observations from a re-analysis of the deposited data

Results flagged for a closer look

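The advantage of the distal H3R2me2a regions with H3K27ac over each comparison set differed between P14 and P7 for the 4 other arginine marks. The values are means over marks (10 P14 and 9 P7 lists), and the comparison was added after they were seen. They are a description and carry no test, since all sets were chosen by P14 peaks. Against distal H3R2me2a peaks without H3K27ac the advantage was 26.2 percentage points at P14 and 22.4 at P7, a difference of 3.86 (2.87 with the 15000 best peaks per list). Against distal H3K27ac peaks without H3R2me2a it was 41.4 and 31.6 points, a difference of 9.80 (4.02 at equal list length). Against promoter peaks with both marks it was -11.3 points at P14, negative in 10 of 10 lists, and 8.34 at P7, positive in 7 of 9 lists. The difference was -19.65 (-19.6 at equal list length). Without tandem repeat regions the P7 side was not positive, with a mean share of 26.5% of regions and 27.01% of promoter peaks. All sets were chosen by P14 peaks, the regions for having H3R2me2a and the second set for lacking it, so the P14 side of these differences is not independent of the choice, and its part was not tested.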

How the results depend on the processing

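Of 297 recomputed values, 272 kept their direction and side of the threshold (for counts, stayed within 1.5 times). The number of regions was 2103 when overlaps had to span 50% of the peak, 2190 at 10000 bp from a start and 1300 with H3K27ac in both lists. It ran from 2142 to 7258 with 1 of the H3R2me2a or H3K27ac lists left out of the rule. Differences to both distal sets kept their sign and passed the test under every alternative run. The comparison with promoter peaks at P14 was -1.79 points at 50% overlap. At P7 it was 19.9 points at 50% overlap, 21.2 with H3K27ac in both lists, 1.13 to 14.12 points with single lists left out, and, in checks added after the values were seen, 3.92 without peaks in both Prmt1-dKO H4R3me2s lists, 6.83 without peaks in all 33 lists, 1.36 without peaks soft-masked over 50% or more and 1.23 without tandem repeats. H4R3me2s in Prmt1-dKO minus WT ran from -4.01 to 1.89 points with single lists left out, and turned positive without WT replicate 2 (1.89) or Prmt1-dKO replicate 2 (0.69). Called nearest genes in bulk RNA numbered 40 to 70 higher with single libraries left out (40 without WT replicate 1), 25 lower with the nearest gene of any type, and 38 higher and 24 lower for regions beyond 10000 bp. In Smart-seq2 DESeq2 called 147 higher and 66 lower (5.07% and 2.82% of all genes were called), and leaving out single libraries gave 0 to 653 higher and 0 to 209 lower (653 and 209 without WT replicate 1, when 29.5% and 12% of all genes were called, and 540 and 183 without WT replicate 2, when 22.5% and 11.2% were), with the lone library assumed to vary like the other group. The cause was not tested.

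With the replicate number as a block, the difference between ages was 13.5 points and bulk calls were 50 higher and 38 lower. For the RNA libraries the numbers are only names, since same-numbered bulk libraries deviated together in 1 of 3 pairs (r = 0.111, -0.313 and -0.211) and not in Smart-seq2 (r = 0.0122). The peak lists were not checked in this way.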
